A study of Mus musculus with 2 samples.

Results

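Platelet-derived growth factor (PDGF) ligand and receptor genes were compared between 1 culture of bone marrow cells from Cpdm mice and 1 culture from wildtype mice. The 7 genes were taken by name: the ligand genes Pdgfa, Pdgfb, Pdgfc and Pdgfd, the receptor genes Pdgfra and Pdgfrb, and Pdgfrl, which encodes a receptor-like protein. All 15 probe sets that the array annotation assigns to exactly 1 of these genes were used, out of 45037 probe sets that are not controls and 18193 genes in all. Cpdm is a spontaneous mouse mutation that removes functional SHARPIN, a component of the complex that builds linear ubiquitin chains. Marrow cells of both genotypes were left unsorted and grown for 10 days with β-glycerophosphate at 10 mM and ascorbic acid at 50 µg/ml, which are added to obtain mineralising osteoblasts, and without other treatment. Each culture was read on 1 Affymetrix array. The sources used here do not give strain background, age, sex or the number of animals per culture. Neither genotype was replicated, so there is no test between them, and the values describe these 2 cultures.

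PDGF chains pair into secreted dimers that drive the growth, survival and migration of mesenchymal cells. The receptors PDGFRα and PDGFRβ are tyrosine kinases that pair on ligand binding. PDGF-A and PDGF-C act through PDGFRα, PDGF-B binds either receptor and PDGF-D acts mainly through PDGFRβ. In mouse marrow PDGFRα is a common surface marker of mesenchymal stromal progenitors, and PDGFRβ is known from pericytes, vascular smooth muscle and stromal cells. Platelets, macrophages, endothelial cells and osteoclast precursors are known sources of PDGF-B.

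The PDGF genes of the Cpdm culture differed from wildtype in both directions. Pdgfd, Pdgfra and Pdgfrl were at least 2-fold lower, which is 3 of 7 genes or 42.9%, and none was at least 2-fold higher. Among all 14055 measured genes 5.98% were at least 2-fold lower and 5.84% at least 2-fold higher. The 7 genes were chosen with earlier results of these data known, so these shares are a description and not a test. Pdgfa, at 1.92-fold lower, and Pdgfrb, at 1.91-fold higher, lay just short of 2-fold, while Pdgfb was 1.76-fold higher by the stronger of its probe sets and Pdgfc 1.39-fold lower. The median log2 ratio of Cpdm over wildtype was -0.94 for the 7 genes and 0.03 for all measured genes. A gene counted as measured if its probe set reached a floor, the 40th percentile of all non-control probe sets, in at least 1 array. The floor was 18.5 for Cpdm and 18.7 for wildtype, and all 7 genes were above it in both arrays.

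The array pair itself gave these limits. The log2 ratios of 18 spike-in probe sets, which are bacterial and phage transcripts added to each sample, ranged from -0.22 to 0.20. When different probe sets of 1 gene were compared, their disagreement corresponded to a robust SD per probe set of 0.44 log2 units where the weaker probe set had a mean signal under 50 (1694 genes), 0.32 between 50 and 200 (2342 genes) and 0.21 from 200 up (1214 genes). These figures cover the array measurement and not animals, cultures or RNA preparations. Control probe sets for ribosomal 18S RNA had log2 ratios from -3.75 to -2.37. Xist, transcribed from the inactive X of female cells, had a log2 ratio of 2.17, and 3 Y-linked genes had log2 ratios from -1.92 to -1.62. Their part in the differences below was not tested. Sharpin had a log2 ratio of -0.28.

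**Figure D1:**
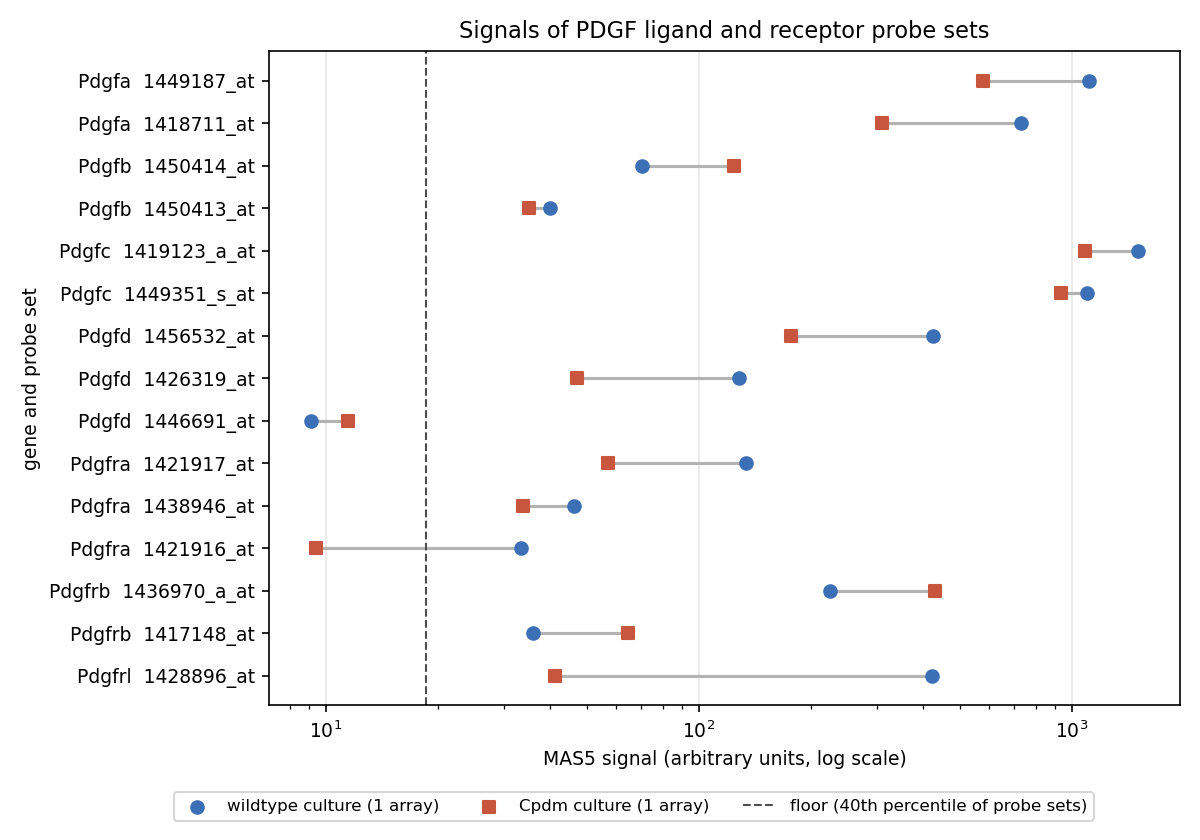
Signal of each of the 15 probe sets in the wildtype culture (circles) and the Cpdm culture (squares), 1 array each, on a log axis in arbitrary MAS5 units; the dashed line marks the floor. Cpdm signals lie left of wildtype for Pdgfa, Pdgfc, Pdgfra and Pdgfrl and right of it for Pdgfrb, Pdgfb has probe sets of either kind, and the 1 Pdgfd probe set below the floor in both arrays is the exception to the lower Pdgfd signals.

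Among the ligands, Pdgfa and Pdgfd were lower in the Cpdm culture by every probe set above the floor. Pdgfa encodes the A chain, the classic ligand of PDGFRα. Its probe set with the highest mean signal, which stands for the gene in the counts, read 579 in Cpdm and 1114 in wildtype, a log2 ratio of -0.94. The other Pdgfa probe set read 309.9 against 728, a log2 ratio of -1.23 or 2.35-fold lower. Cpdm thus gave 52.0% and 42.5% of the wildtype signal, and the probe sets differed by 0.29 log2 units. Their average of -1.09 would put Pdgfa past 2-fold. Both were designed on the same sequence record, so they are not independent measurements of the gene.

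Pdgfd encodes the D chain, which is secreted in a latent form with an extra CUB domain that proteases must remove. One probe set read 176 in Cpdm and 423 in wildtype, 2.40-fold lower with a log2 ratio of -1.26. A second read 47.2 against 128, 2.71-fold lower with a log2 ratio of -1.44. These were designed on different sequence records and differed by 0.17 log2 units. The third Pdgfd probe set lay below the floor in both arrays, at 11.4 and 9.12, and gives no ratio.

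Pdgfc, the gene of the other latent, CUB-bearing chain, was closer to even between the cultures. It read 1084 in Cpdm against 1508 in the wildtype array, a log2 ratio of -0.48. A second probe set read 936 against 1096, a log2 ratio of -0.23, just outside the range of the spike-ins. The identifier of that second probe set ends in _s_at, a kind that can bind transcripts of related genes. The difference was smaller for Pdgfc than for Pdgfd by 0.79 to 1.21 log2 units over the 4 pairings of their probe sets.

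Pdgfb, which encodes the B chain, gave no common direction. Its stronger probe set read 124 in Cpdm and 70.5 in wildtype, 1.76-fold higher with a log2 ratio of 0.82. The weaker one read 35.0 against 39.8, a log2 ratio of -0.18, which lies within the range of the spike-ins. The probe sets thus disagreed by 0.998 log2 units although both were designed on the same sequence record. Among genes whose weaker probe set had a mean signal under 50, 11.1% showed a disagreement of at least 1 log2 unit. The ratio of Pdgfb lay above that of Pdgfa by 0.76 to 2.05 log2 units over 4 pairings of probe sets.

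RefSeq sequence before the annotated gene start (build GRCm38.p6) was found for 4 of the 7 genes, Pdgfa, Pdgfc, Pdgfd and Pdgfra, in windows of 250 bases. It is shown for the ligands because Pdgfa and Pdgfd were lower while Pdgfc differed less. Capitals mark matches, on either strand, to the GC box GGGCGG, the TATA box TATAAA, the RUNX core TGTGGT, the AP-1 motif TGANTCA, the NF-κB site or the CArG box bound by serum response factor. Sequences run 5′ to 3′ on the strand of the gene. The Pdgfa stretch is short because it lies inside the gene record, which reaches further upstream.
Pdgfa, chr5:138995017-138995046, minus strand, 102 to 73 bases before the start: gcccagcccCCGCCCtCCGCCCcttccgtc
Pdgfc, chr3:81036296-81036415, plus strand, 120 to 1 bases before the start: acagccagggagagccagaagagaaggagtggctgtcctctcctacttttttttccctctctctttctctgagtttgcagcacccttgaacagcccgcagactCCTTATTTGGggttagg
Pdgfd, chr9:6168243-6168362, plus strand, 243 to 124 bases before the start: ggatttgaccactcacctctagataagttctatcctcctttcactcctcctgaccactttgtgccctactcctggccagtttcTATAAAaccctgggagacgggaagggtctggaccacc

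The windows had little in common. Pdgfa held 2 GC boxes in this window and 1 in the window of its second annotated start, against 32.7% of all 32851 windows with at least 1, and its GC contents were 72.4% and 66.4% against a median of 52.4%. Pdgfc held a CArG box 17 to 8 bases before its start, found in 1.47% of all windows, and an NF-κB site 150 to 141 bases before it, found in 3.90%. Pdgfd held a TATA box 160 to 155 bases before its start, found in 12.4% of windows. The Pdgfd gene record begins upstream of that start, at base 6168363, so part of its window lies inside the record. The TATA box lies outside it, in the stretch shown, which ends at base 6168362. The RUNX core (14.0% of all windows) and the AP-1 motif (6.75%) had no match in any of these windows. Matches describe letters only and do not show binding.

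The receptor genes differed in opposite directions. Pdgfra was lower in the Cpdm culture by all 3 of its probe sets, and Pdgfrb was higher by both of its probe sets. The strongest Pdgfra probe set read 57.0 in Cpdm and 134 in wildtype, 2.35-fold lower with a log2 ratio of -1.23. The other Pdgfra probe sets had low wildtype signals. One read 33.8 against 46.2, a log2 ratio of -0.45. The other read 9.40, below the floor, against 33.3, which is at least 1.80-fold lower. Averaged over its probe sets Pdgfra had a log2 ratio of -0.84, short of 2-fold. The strongest and the last of these were designed on the same sequence record. The window before the annotated Pdgfra start held none of the 6 motifs. It lies inside the Pdgfra gene record, which reaches further upstream, and it is shown for its last 30 bases alone.
Pdgfra, chr5:75152221-75152250, plus strand, 30 to 1 bases before the start: accaagggggggggggacttcatttcctga

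Pdgfrb read 430.0 in Cpdm and 225 in wildtype, 1.91-fold higher with a log2 ratio of 0.94. Its other probe set read 64.6 against 36.0, 1.79-fold higher with a log2 ratio of 0.84. The probe sets of Pdgfrb differed by 0.09 log2 units, the closest pair among the PDGF genes. The Pdgfrb ratio exceeded the Pdgfra ratio by 2.17 log2 units, which is 4.50-fold, by the representative probe sets. Over all 6 pairings of probe sets the excess was 1.29 to 2.17 log2 units, where the pairings with the Pdgfra probe set at the floor give lower bounds. A common scaling factor between the arrays cancels in this difference. Since signals of different probe sets are not on a common scale, it says how unequally the receptors differed and not which was more abundant.

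Pdgfrl showed the largest difference of the 7 genes. It encodes a protein that resembles the extracellular part of the PDGF receptors and has no kinase domain. The signal was 41.1 in Cpdm and 423 in wildtype, 10.3-fold lower with a log2 ratio of -3.36, so Cpdm gave 9.72% of the wildtype signal. Ordered by log2 ratio, Pdgfrl was number 64 from the lowest of 14055 measured genes, Pdgfd number 531, Pdgfra number 552 and Pdgfa number 925. Pdgfrb was number 959 from the highest and Pdgfb number 1308. Pdgfrl has 1 probe set, so no second probe set checks this value.

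**Figure D2:**
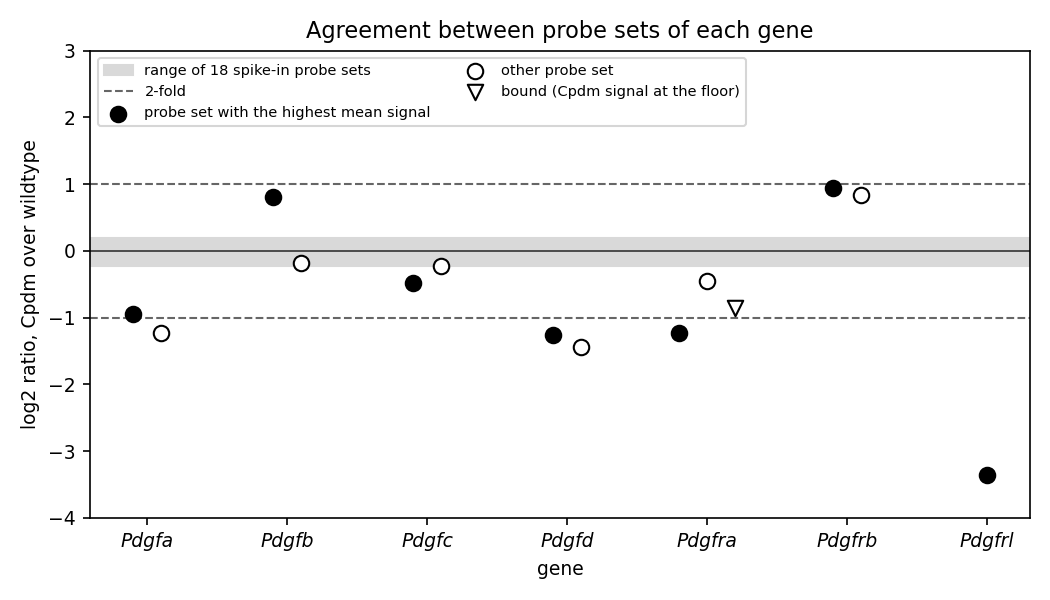
Log2 ratio of Cpdm over wildtype for each of the 14 probe sets at or above the floor, by gene; filled points are the probe set with the highest mean signal, the triangle is a bound, the grey band is the range of 18 spike-in probe sets and dashed lines mark 2-fold. Probe sets of Pdgfa, Pdgfc, Pdgfd and Pdgfra lie below 0 and those of Pdgfrb above it, while the Pdgfb probe sets lie at 0.82 and -0.18.

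Agreement between probe sets was checked for the 6 PDGF genes with at least 2 of them above the floor in both arrays. These probe sets pointed the same way for 5 of the 6 genes, with Pdgfb as the exception. Among all 5250 such genes on the array 58.1% had probe sets of 1 sign. Neither the size of the ratios nor the number of probe sets per gene was matched here. Each of the 6 PDGF genes had 2 such probe sets, while other genes could have more, which leaves more room for disagreement. The median absolute log2 ratio of all measured genes was 0.35. The probe sets of Pdgfa, of Pdgfb and of Pdgfc were each designed on 1 sequence record. Of the 14 PDGF probe sets above the floor in at least 1 array, 11 had a log2 ratio below 0 and 3 above it. Among all 24523 such probe sets with 1 gene, 49.4% were below 0. At least 2-fold lower were 5 of them, namely both of Pdgfd and 1 each of Pdgfa, Pdgfra and Pdgfrl.

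**Figure D3:**
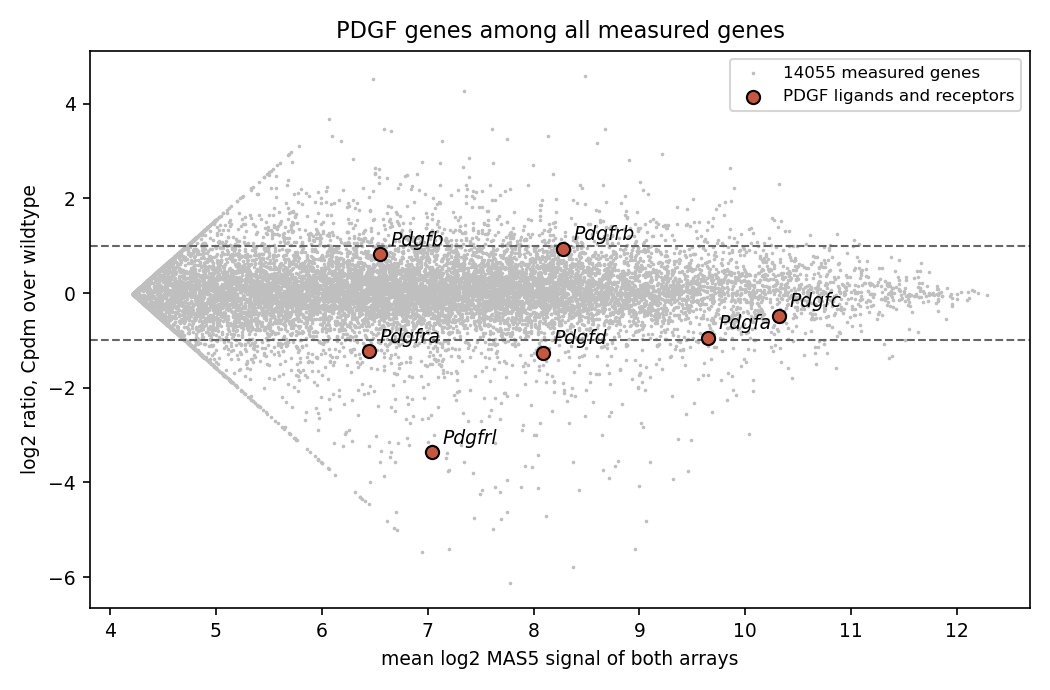
Log2 ratio of Cpdm over wildtype against the mean log2 MAS5 signal of both arrays for 14055 measured genes (grey) and the 7 PDGF genes (red), with dashed lines at 2-fold. Pdgfrl lies well below the bulk of genes of similar signal, and the other PDGF genes lie near the 2-fold lines or inside them.

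Genes that act on or around the PDGF system were taken in 6 lists of roles, with 68 different genes measured. Past 2-fold on the lower side were 9 of them (13.2%, against 5.98% of all measured genes), past it on the higher side were 6 (8.82%, against 5.84%), and 53 lay between. Their median log2 ratio was 0.22, against 0.03 for all measured genes. The lists were also chosen with earlier results of these data known, so these shares only describe them.

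The proteases that mature PDGF chains were spread widely, with log2 ratios from -4.10 to 1.62. Past 2-fold were 2 of the 7 measured members on the lower side and 1 on the higher side, with 4 between. Among all measured genes the shares were 5.98% lower and 5.84% higher. Pcsk6, which encodes the proprotein convertase PACE4, read 48.1 in Cpdm against 826, 17.2-fold lower by its only probe set. Pcsk5, a related convertase gene, read 31.1 against 96.1, a log2 ratio of -1.63 by a probe set of the _s_at kind, while its other probe sets near the floor ranged up to 0.52. Plat, the gene of tissue plasminogen activator, which releases active PDGF-C, read 188 against 61.1, a log2 ratio of 1.62, with a weaker probe set at -0.52. Furin, the convertase gene best known for PDGF-A and PDGF-B, had a log2 ratio of 0.31. The median of the list was -0.68, but 0.31 without probe sets of the _s_at, _x_at and _a_at kinds and 0.08 with the floor at the 60th percentile.

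Among 5 co-receptors and binding partners, 2 passed 2-fold by their representative probe sets, both lower in Cpdm. On that side were 5.98% of all measured genes. Nrp2, a neuropilin gene, read 970.2 in Cpdm against 2733, a log2 ratio of -1.49, and its 3 other probe sets were also below 0. Cspg4 encodes the proteoglycan NG2, which binds PDGF-A and marks pericytes. It read 45.2 against 93.3, 2.06-fold lower, and at least 6.73-fold lower by its other probe set. Nrp1, the gene of the neuropilin linked to PDGF signalling in mural cells, had a log2 ratio of 0.70, and its other probe sets ranged from 0.49 to 1.56, with those at 1.19 and 1.56 past 2-fold. Sparc, whose matrix protein binds PDGF-B, had a log2 ratio of -0.55. The median was -0.55.

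Most genes of the intracellular relay differed by less than 2-fold. The median of the list was 0.27, with 15 members above 0 and 9 below. Past 2-fold were 3 of 24 adaptors, kinases and other transducers, all lower in Cpdm, against 5.98% of all measured genes on that side. Those lower were the Src-family kinase genes Fyn, at 204 in Cpdm against 582 (log2 ratio -1.52), and Yes1, at 68.6 against 145 (-1.07), together with the phospholipase gene Plcg1, at 96.9 against 204 (-1.07). The second Plcg1 probe set gave -0.43, and the second Fyn probe set -1.27. Src itself had log2 ratios of 0.08 and 0.62 by different probe sets. The PI3-kinase subunit genes Pik3r1 and Pik3ca had log2 ratios of 0.43 and 0.09. The highest log2 ratios of the list were those of Gab1 (0.86), Pik3r2 (0.80) and Rasa1 (0.71).

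By representative probe sets, genes whose products restrain receptor signalling were mostly above 0 in log2 ratio. Of the 8 that were measured, 7 lay above 0, as did 52.4% of all measured genes. Past 2-fold on the higher side were 2, against 5.84% of all measured genes. Cblb, at 0.05, was within the range of the spike-ins. Cbl, Cblb, Ptpn2, Ptprj and Sla each also had a probe set below 0, down to -0.48 for Cbl. The median of the list was 0.62, or 0.26 when probe sets were averaged. Dusp6, a phosphatase gene that is itself induced by ERK signalling, read 1352 in Cpdm against 478, 2.83-fold higher. Sla, an adaptor gene of receptor turnover and of blood cells, read 235 against 108, 2.19-fold higher, but 2 of its 4 probe sets lay near 0.

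Textbook PDGF-induced genes did not share a direction. By representative probe sets only Has2 of the 12 measured members passed 2-fold, and the median was 0.14. Of all measured genes 5.84% passed it on the higher side, as Has2 did. Has2 encodes a hyaluronan synthase and read 429 in Cpdm and 10.3, below the floor, in wildtype, at least 22.9-fold higher. Ccl7, a monocyte chemokine gene, had a log2 ratio of 0.95, at 449 against 233. Cxcl1, a neutrophil chemokine gene, gave no common direction: its representative probe set, of the _x_at kind, had a log2 ratio of -0.50, while its others were at 0.71 and at least 5.02-fold higher. Ccnd1 had log2 ratios of -0.38, -0.78 and -1.01 by its 3 probe sets. Txnrd1 had a log2 ratio of 0.33 but was at least 2.18-fold lower by another probe set. The immediate early genes Fos and Egr1 had log2 ratios of -0.19 and -0.20, within the range of the spike-ins, and Myc of 0.07.

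Related growth factor and receptor genes differed in both directions as well. Past 2-fold by representative probe sets were 2 of 12 measured members on the lower side and 2 on the higher side. Among all measured genes the shares were 5.98% lower and 5.84% higher. The median of 0.15 turned to -0.07 when probe sets were averaged. Kit, the stem cell factor receptor gene, read 20.4, near the floor, against 48.7 (log2 ratio -1.26). Flt1, a VEGF receptor gene, was at least 3.34-fold lower by 1 probe set and had a log2 ratio of 0.10 by another. Vegfa had a log2 ratio of -0.89, and of -1.93 by its other probe set. Csf1r had a log2 ratio of 0.46, and of 1.25 and 1.12 by its other probe sets. Vegfc was at least 2.65-fold higher, at 49.6 against 14.4, and Vegfb was 2.01-fold higher, at 141 against 70.1, a value just past the 2-fold rule that fell short of it with scaling to the spike-ins.

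**Figure D4:**
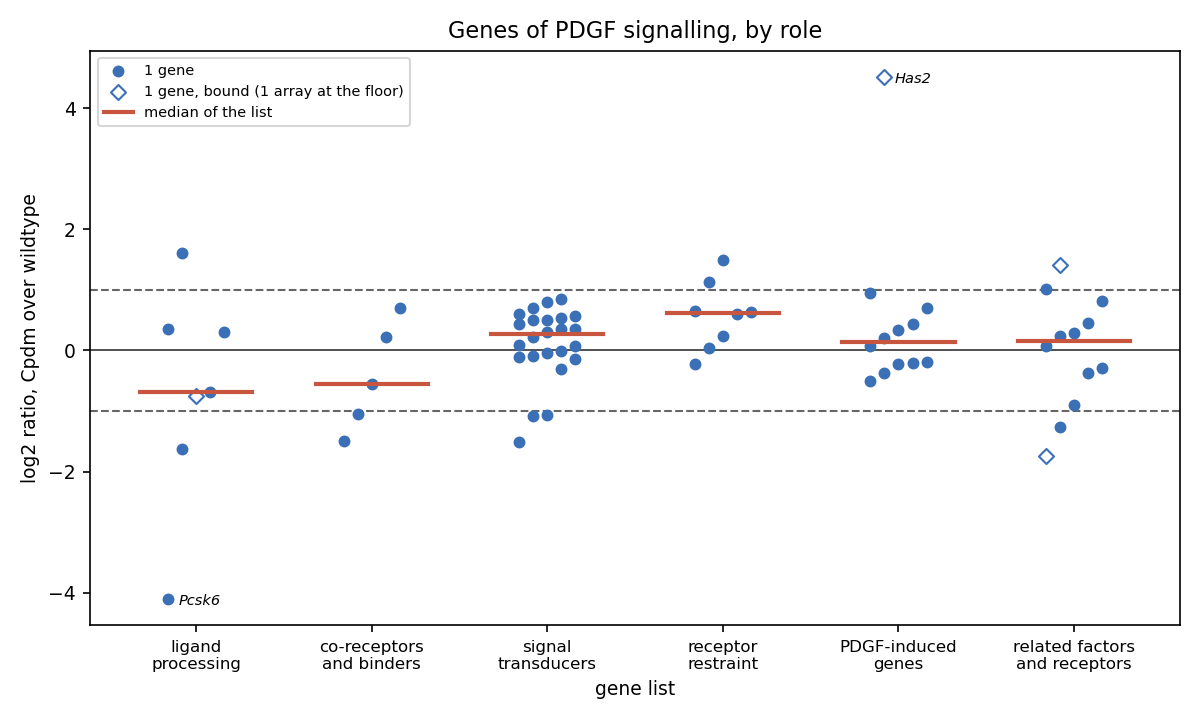
Log2 ratio of Cpdm over wildtype for each measured gene of 6 role lists around PDGF signalling (points; open diamonds are bounds), with the median of each list as a bar and dashed lines at 2-fold. Pcsk6 at -4.10 and Has2 at a bound of 4.52 lie farthest out, while most of the 24 transducers lie between the dashed lines.

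Markers of the cells known to make or receive PDGF also differed between the unsorted cultures. In such bulk samples fewer cells of a type and less RNA per cell cannot be told apart, and the part of these differences in the PDGF values was not tested. Sums of marker signals are given for the osteoblast, mural cell, mesenchymal stromal and macrophage lists. They weigh genes by probe sets that are not on a common scale, so a few strong probe sets can set them. Osteoblast markers were at least 2-fold lower for 6 of 7 measured members, against 5.98% of all measured genes. The sum of their signals was 4910 in Cpdm against 14748 in the wildtype array. Sp7, Alpl, Dmp1, Pth1r, Phex and Col1a1 passed 2-fold, with log2 ratios from -5.48 to -1.59, and Ibsp had a log2 ratio of -0.39, but of -2.63 by its other probe set. Runx2, Bglap and Spp1 have no probe set that the annotation assigns to them alone. In the same culture Pdgfrl, Pdgfd, Pdgfra, Pdgfa and Pdgfc were lower, and a link to these markers was not tested.

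Mural cell markers, which belong to cells that carry PDGFRβ, went both ways. Of 8 measured members Tagln was at least 2-fold higher, with a log2 ratio of 2.22. Des and Cspg4 were at least 2-fold lower, at -1.72 and -1.05, and 5 lay between. Of all measured genes 5.84% were at least 2-fold higher and 5.98% at least 2-fold lower. Acta2, the smooth muscle actin gene, read 3580 in Cpdm against 2201 by a probe set of the _s_at kind. Rgs5, a pericyte marker, was near the floor at 26.3 against 34.8, and Mcam and Kcnj8 were below it in both arrays. The summed signal of the list was 5943 against 3030, most of it from Acta2 and Tagln. Of the remaining members Notch3 had a log2 ratio of 0.47, with a weaker probe set at least 1.14-fold lower, Anpep had a log2 ratio of -0.11, and the pericyte marker Abcc9 was at least 1.62-fold higher. Log2 ratios were above 0 for 4 of the 8 members and below 0 for 4. Pdgfrb was higher in the same culture, and a link to these markers was not tested.

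Mesenchymal stromal markers summed to 8260 in Cpdm and 8898 in wildtype, with Col1a2 as the strongest member in both arrays. Log2 ratios were below 0 for 8 of the 11 measured members, against 47.6% of all measured genes. Of these 8, Col1a2, Lum and Lepr were within the range of the spike-ins, at -0.01, -0.03 and -0.10. Above 0 were Vcam1, Cxcl12 and Thy1, the last at 0.88. Of all measured genes 5.84% were at least 2-fold higher and 5.98% at least 2-fold lower. Vcam1 and Cxcl12 passed 2-fold on the higher side among 11 measured members, with log2 ratios of 2.28 and 1.05. Dcn passed it on the lower side, at 954 against 2357. The other 8 lay between by their representative probe sets. Among these Col1a2 read 3408 against 3432, but was 2.04-fold and 7.15-fold lower by its other probe sets. Prrx1 and Twist1, transcription factor genes of mesenchymal cells, had log2 ratios of -0.79 and -0.50. The 5 measured Prrx1 probe sets ranged from -1.65 to -0.34. Lepr, a marker of marrow stroma, had log2 ratios of -0.10 and 0.59 by different probe sets.

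Among possible sources of PDGF-B, macrophage markers were above 0 in log2 ratio for 9 of 10 measured members, against 52.4% of all measured genes, with sums of 17076 in Cpdm and 12528 in wildtype. Aif1, Fcgr1 and Ccr2 were at least 2-fold higher, with log2 ratios of 2.34, 1.76 and 1.32, against 5.84% of all measured genes. Cd68 had a log2 ratio of 0.28 and Lyz2 of -0.40. Megakaryocyte and platelet markers had no member at 2-fold among 6 measured, with Gp9 and Vwf below the floor in both arrays. Their log2 ratios were below 0 for 4 members and above 0 for 2, with a median of -0.25. Gp5, Gp6 and Ppbp had log2 ratios of -0.64, -0.48 and -0.44, and Itga2b of -0.06. Pf4 had a log2 ratio of 0.43 and Gp1bb of 0.10, with a weaker Gp1bb probe set at -0.60. The defining endothelial markers Pecam1, Cdh5, Tek, Tie1 and Emcn lay below the floor in both arrays. Of the 4 endothelial list members measured, Flt1 was at least 2-fold lower, against 5.98% of all measured genes. Eng and Kdr had log2 ratios of -0.45 and -0.37.

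**Figure D5:**
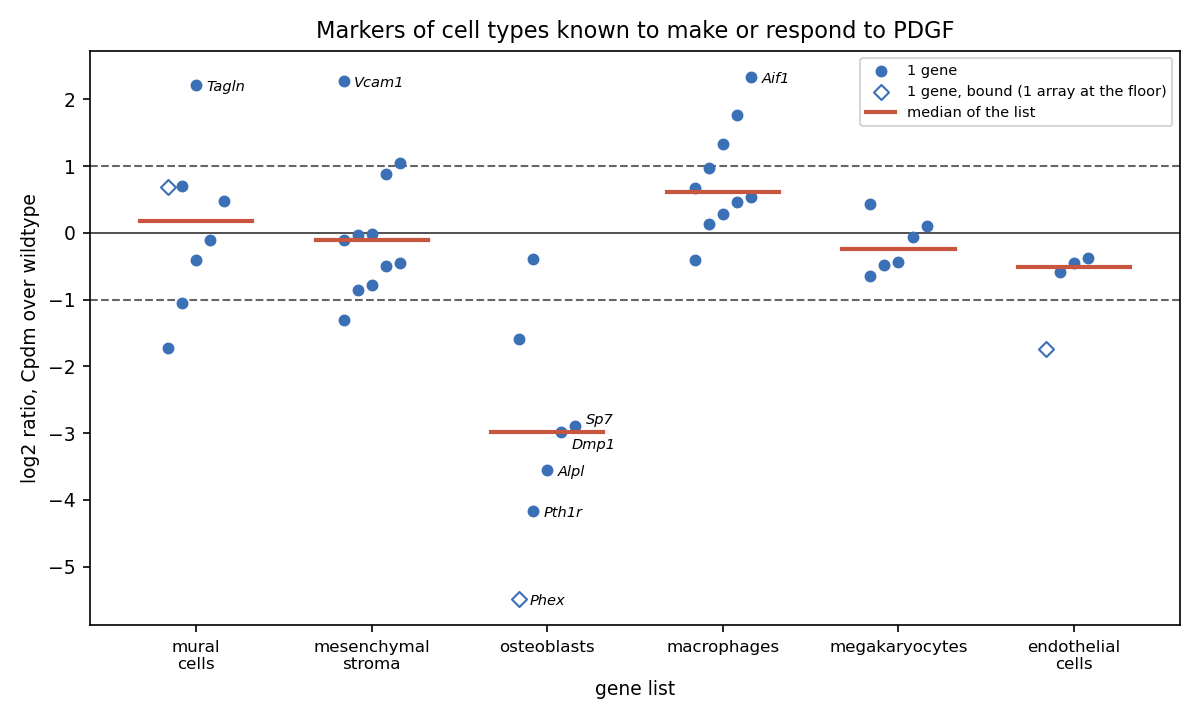
Log2 ratio of Cpdm over wildtype for each measured marker of 6 cell types (points; open diamonds are bounds), with the median of each list as a bar and dashed lines at 2-fold. The osteoblast median lies at -2.98 and the macrophage median at 0.61, and the mural cell markers spread from -1.72 to 2.22.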

How the data were processed

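Values came from 1 table with 45101 probe sets, in which the authors deposited the signal intensity of each array on a linear scale. The software, per the submitters' processing notes, was GCOS 1.4 with MAS5. MAS5 combines the probes of a set and scales each array by 1 factor. The sources used here do not give the scaling target, detection calls or genome build. Biotin-labelled cRNA was made from 5 µg of total RNA, per the labels' protocols.

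No further scaling was applied to these signals. Of 45037 non-control probe sets, 34945 carried exactly 1 gene in the platform annotation. The Entrez identifiers of all 7 PDGF genes matched their RefSeq symbols. Signals below the 40th percentile of an array were set to that floor. The probe set of highest mean log2 signal stood for its gene, and where 1 array was at the floor the fold is a bound, written "at least". Differences are log2 ratios, counted from 2-fold; no p-value was computed. The number of arrays limits the precision. Named in each role list were members past 2-fold, or the 2 largest where there were fewer; in each marker list, members past 2-fold and the 2 with the highest signal; some further members were named after their values were seen. Members and lists were chosen with earlier results of these data known. The calculation was tested on simulated arrays. Python 3.11.15, numpy 2.4.6, pandas 2.3.3 and matplotlib 3.10.9 were used. Alternatives were other floors, 3 other scalings and other choices of probe set.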

Additional observations from a re-analysis of the deposited data

How the results depend on the processing

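Each value was recomputed with no floor, floors at the 20th and 60th percentiles, scaling to equal medians, quantile normalization, scaling to the spike-ins, the mean over probe sets, and only probe sets without the _s_at, _x_at or _a_at endings. The count of PDGF genes at least 2-fold lower was 3 and that at least 2-fold higher 0 under all 8 alternatives, and their median log2 ratio lay between -1.09 and -0.84. Pdgfra (-0.84) and Pdgfb (0.32) moved by more than the robust SD between probe sets of 0.32, both with the mean over probe sets, where Pdgfra was under 2-fold and Pdgfa reached it at -1.09. Pdgfc has no value without the _s_at and _a_at probe sets. Genes at least 2-fold lower numbered 1885 with no floor and 1397 with the floor at the 20th percentile, and genes at least 2-fold higher 1741 and 1265, since weak signals then give ratios. Role-list genes past 2-fold numbered 10 to 15. No paired analysis was possible because each genotype has 1 array, and leaving out an array leaves no comparison. Signals near the floor limit the smaller Pdgfra and Pdgfb probe sets, and Pdgfrl rests on 1 probe set.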
